A study of Mus musculus with 3 samples.

Results

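Bone marrow cells of mice carrying a homozygous knockout of Fabp4 were compared with those of mice carrying a heterozygous knockout, gene by gene, in all kept cells and in 4 groups of cells gated by marker RNA. Fabp4 encodes a fatty acid-binding protein of adipocytes and macrophages. Each library is 1 droplet-based single-cell RNA sequencing reaction on marrow pooled from 2 mice, and a wild-type library made the same way is given beside them as a reference level. The series asks whether leukaemia stem cells need Fabp4 and normal blood stem cells do not. The labels do not say whether this marrow was leukaemic, which part of Fabp4 was deleted, or the strain, sex and age of the mice. Cells were kept if they held at least 500 unique molecular identifiers (UMIs, counts of captured RNA molecules) and at least 200 genes, with a mitochondrial share of UMIs under 10%. These criteria left 4318 homozygous and 7957 heterozygous cells, 12275 of the 17879 kept cells of the 3 libraries.

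There is 1 library on each side. All differences therefore compare 2 libraries, every interval is a 95% interval for counting error alone that treats the UMIs of a cell as independent, and no p-value is given. Levels are CPM, the UMIs of a gene scaled to 1000000 UMIs of the same cells, and log2 differences are homozygous over heterozygous. Depth was 54160590 UMIs over 8115 barcodes in the homozygous library and 78426908 UMIs over 10718 barcodes in the heterozygous library, and kept cells held a median of 9036.5 and 7658 UMIs. The mitochondrial limit removed 46.8% of the homozygous, 25.8% of the heterozygous and 40.6% of the wild-type barcodes. The libraries also differed in the sex markers of their cells. Xist RNA without any Y-linked RNA was found in 3636 homozygous cells (84.2%) and 1148 heterozygous cells (14.4%). Y-linked RNA without Xist was found in 142 homozygous cells (3.29%) and 4507 heterozygous cells (56.6%). In the wild-type library 91.9% of kept cells held Xist only and 1.32% Y-linked RNA only. Wild type was thus nearer in sex markers to the homozygous library. Nearness to wild type in other values cannot be told apart from this. Genotype, library, mouse and sex cannot be told apart in this comparison, and values within cells of 1 sex marker, in sets of at least 50 cells of each library, are given beside the main results. For Y-linked RNA only all kept cells and the cells with Ly6c2 and Ccr2 RNA gave sets that large. Among Y-only kept cells markers of other cell types differed as well: all 8 compared T and natural killer cell genes (median log2 4.78), all 7 B and plasma cell genes (median 5.61) and 11 of 16 stem cell genes (median 1.68) were higher in the homozygous library. Over all 13661 genes compared in that set the median was 0.20, and 1969 were at least 2-fold higher. The part of these markers in the Y-only values was not tested. The 2 libraries shared 10 kept cell barcodes.

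Bone marrow makes neutrophils and monocytes from progenitors that carry Cd34 on their surface. Neutrophil precursors first load primary granules with proteases such as Elane, then secondary granules with proteins such as Ltf (lactoferrin), and monocytes leave the marrow through the chemokine receptor Ccr2. Type I interferon acts through the receptor Ifnar1/Ifnar2 and factors such as Stat2 and Irf9, which switch on antiviral genes through a promoter element of repeated GAAA letters.

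Fabp4 RNA was scarce in every library and, over all kept cells, lowest in the homozygous one. The homozygous library held 5 Fabp4 UMIs in 4 kept cells (0.108 CPM, 0.0352 to 0.253), the heterozygous library 38 UMIs in 26 cells (0.521 CPM, 0.369 to 0.716) and the wild-type library 50 UMIs in 33 cells (0.745 CPM). The log2 difference was -2.27 (-3.97 to -0.92). Within the gates described next, Elane-gated cells held 4 homozygous and 11 heterozygous Fabp4 UMIs, Ltf-gated cells 1 and 15, monocyte-gated cells 0 and 6, and Cd34-gated cells 0 and 0. The wild-type gates held 8, 1, 26 and 2 Fabp4 UMIs in the same order, so the wild-type level exceeded the homozygous one in Elane-gated cells (0.277 against 0.216 CPM) but not in Ltf-gated cells, with 1 UMI each. These are 3' tags, and whether they come from inside the deleted part is not known.

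The homozygous library held more cells of the Elane and monocyte gates and fewer of the Ltf gate. Cells with at least 10 Elane UMIs per 10000 were 29.8% of homozygous (28.4% to 31.2%) and 17.3% of heterozygous cells (16.5% to 18.2%), a difference of 12.5 percentage points (10.9 to 14.1). Cells with at least 10 Ltf UMIs per 10000 were 3.87% (167 cells) and 20.6% (1643 cells), a difference of -16.8 points (-17.8 to -15.7). Cells with a UMI of both Ly6c2, a surface protein of inflammatory monocytes, and Ccr2 were 32.7% and 17.1%, a difference of 15.6 points (14.0 to 17.2). Cd34-gated cells, with at least 1 Cd34 UMI, were 4.91% (212 cells) and 5.71% (454 cells), a difference of -0.80 points (-1.60 to 0.05). The wild-type shares were 31.2%, 5.39%, 27.6% and 16.2% in the same order. For the first 3 gates the homozygous library lay nearer to wild type, which it also resembled in sex markers. Gates may overlap. With every cell thinned to 2000 UMIs, which left out 671 homozygous and 546 heterozygous cells, the shares were 35.0% and 21.4% for Elane, 4.20% and 22.9% for Ltf, 15.1% and 6.02% for Ly6c2 with Ccr2, and 1.62% and 1.58% for Cd34. Among cells with Xist only the Ly6c2-Ccr2 difference was 2.85 points (-0.27 to 5.89) and the Elane difference 13.6, and among cells with Y-linked RNA only they were 20.3 and -3.64. The Cd34 difference was -5.63 and 14.2 points in these sets. With a mitochondrial limit of 25% the Ly6c2-Ccr2 difference was 6.80 points, and with gates of at least 1 UMI the Elane difference was 6.76 and the Ltf difference -47.7 points.

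**Figure D1:**
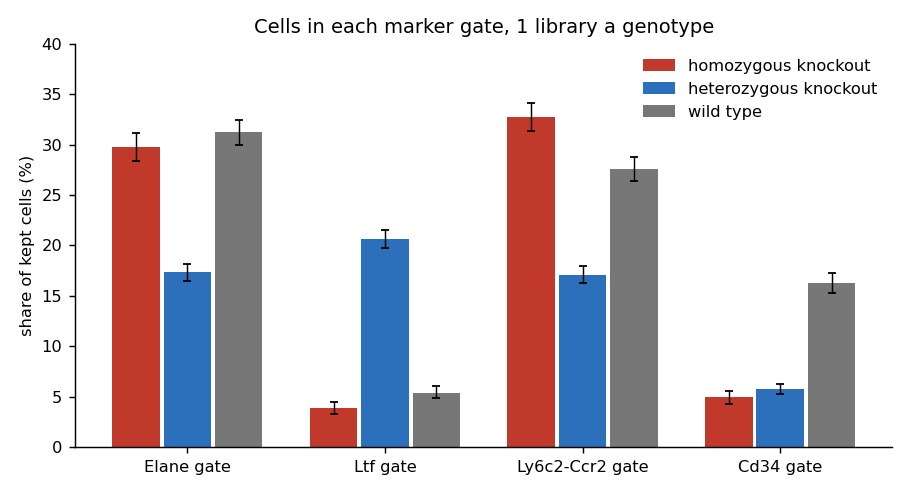
Share of kept cells in each of the 4 gates (vertical axis, percent) in the homozygous, heterozygous and wild-type libraries. Bars are shares of 1 library each and lines are 95% Clopper-Pearson intervals for counting error. The Ltf bar reaches 20.6% in the heterozygous library and 3.87% and 5.39% in the homozygous and wild-type libraries.

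Marker levels followed the gates. Mpo, the peroxidase of primary granules, stood at 754 CPM in homozygous and 576 CPM in heterozygous Elane-gated cells against 18.8 and 43.3 CPM in Ltf-gated cells. Camp, the secondary granule peptide cathelicidin, stood at 24249 and 21502 CPM in the Ltf gate, and Csf1r, the growth factor receptor of monocytes, at 133 and 111 CPM in the Ly6c2-Ccr2 gate. The Cd34 gate was less distinct. Its level of Kit, a growth factor receptor of progenitors, was 25.5 and 27.0 CPM, below the 40.6 and 38.2 CPM of the Elane gate, and it is called by its rule only. Neutrophil RNA was more abundant in the Elane, Ly6c2-Ccr2 and Cd34 gates of the heterozygous library than in those of the homozygous one. The summed level of 19 mature neutrophil genes in the Ly6c2-Ccr2 gate was 6558 CPM in homozygous and 27774 CPM in heterozygous cells. This includes cells that also passed the Ltf gate, 0.637% of homozygous and 6.25% of heterozygous Ly6c2-Ccr2 cells. Of the Ltf-gated cells, these were 5.39% and 5.17%.

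Genes of the interferon response were higher in homozygous cells in every gate. Of 47 listed genes, 44 had at least 20 UMIs in both libraries together over all kept cells. Of these, 43 were higher in the homozygous library, 36 of them by at least 2-fold, and the median log2 difference was 1.52. Over all 17026 genes compared there, 7.31% were at least 2-fold higher and the median was 0.22. In Elane-gated cells 24 of 41 genes were at least 2-fold higher (median 1.16), against 4.1% of all genes compared. In Ltf-gated cells it was 23 of 37 (median 1.19, background 4.09%), and 11 with a stricter minimum of 10 expected UMIs in the smaller library. In Ly6c2-Ccr2 cells it was 29 of 44 (median 1.27, background 4.23%) and in Cd34-gated cells 17 of 41 (median 0.85, background 2.37%). Among Xist-only cells the median was 1.04 over all kept cells 1.08 in the Ly6c2-Ccr2 gate and 0.78 in the Cd34 gate, and among Y-only cells 1.77 and 1.37. All 44 genes were higher in homozygous Ly6c2-Ccr2 cells, and all 44 in homozygous cells with Xist only.

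The promoters of 3 of these genes are shown because the named antiviral genes were higher together and the interferon-stimulated element can be read in them. Each line gives the 250 bases before the transcription start in RefSeq on GRCm38.p6, 5′ to 3′ on the gene's strand, with matches to the searched motif in capitals. The motif is GAAA, any 2 bases and GAAA again, on either strand. Isg15 lies on chromosome 4 (chr4:156200819-156201068, minus strand) with 3 overlapping matches in 1 run of 22 bases that ends 56 bases before the start. Bst2 lies on chromosome 8 (chr8:71537473-71537722, minus strand) with 2 matches in 1 run of 16 bases that ends 114 bases before the start. Ifit3 lies on chromosome 19 (chr19:34583279-34583528, plus strand) with 2 separate matches, the nearer 112 bases before the start, both on the opposite strand and therefore shown as reverse complements.
Isg15: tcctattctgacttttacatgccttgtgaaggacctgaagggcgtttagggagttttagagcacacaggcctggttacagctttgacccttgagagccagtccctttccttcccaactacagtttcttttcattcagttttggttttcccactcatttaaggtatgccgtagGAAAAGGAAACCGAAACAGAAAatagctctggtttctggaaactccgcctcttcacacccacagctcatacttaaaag
Bst2: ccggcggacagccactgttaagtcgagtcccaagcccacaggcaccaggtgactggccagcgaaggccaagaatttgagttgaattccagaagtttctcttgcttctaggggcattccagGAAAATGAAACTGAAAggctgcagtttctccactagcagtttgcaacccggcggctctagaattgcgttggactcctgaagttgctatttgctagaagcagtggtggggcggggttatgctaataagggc
Ifit3: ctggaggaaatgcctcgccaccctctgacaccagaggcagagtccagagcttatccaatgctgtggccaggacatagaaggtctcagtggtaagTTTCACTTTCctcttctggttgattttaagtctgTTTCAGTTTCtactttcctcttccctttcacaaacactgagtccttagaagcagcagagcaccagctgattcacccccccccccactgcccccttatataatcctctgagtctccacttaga
Of the interferon response genes, 36 were found in the promoter table, and 20 of them (55.6%) held the motif within 250 bases before to 50 bases after the start, against 1079 of 27025 genes (3.99%). In Ly6c2-Ccr2 cells 16 of 19 compared genes with the motif and 7 of 14 without it were at least 2-fold higher, with medians of 1.42 and 1.20. In Cd34-gated cells the counts were 7 of 16 and 7 of 14, with medians of 0.93 and 0.96. A match describes these letters and not a bound site.

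Isg15, a ubiquitin-like protein attached to other proteins during antiviral responses, stood at 63.0 CPM in homozygous, 21.3 in heterozygous and 16.3 in wild-type kept cells, a log2 difference of 1.56 (1.47 to 1.65). Its difference was 1.27 in the Elane gate, 1.5 (1.14 to 1.84) in the Ltf gate, 1.96 (1.79 to 2.13) in the Ly6c2-Ccr2 gate, where the levels were 84.4, 21.8 and 24.4 CPM, and 1.27 (0.81 to 1.74) in the Cd34 gate. The homozygous interval lay above the heterozygous one in all 4 gates. An Isg15 UMI was found in 46.4% of homozygous and 15.5% of heterozygous Ly6c2-Ccr2 cells, and in 16% and 5.24% after thinning to 2000 UMIs. Over all kept cells the shares were 28.6% and 13.1%, and the log2 difference of Isg15 was 1.72 among Xist-only and 1.10 among Y-only cells. Usp18, which removes Isg15 from proteins and dampens the interferon receptor, stood at 44.9 and 16.9 CPM in Ly6c2-Ccr2 cells (log2 1.41) and at 21.2 and 2.97 CPM in Ltf-gated cells (log2 2.84).

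Ifit3, of a family whose members bind viral RNA, was the listed gene with the largest difference over all kept cells. It stood at 22.6 CPM in homozygous, 2.62 in heterozygous and 1.41 in wild-type kept cells, a log2 difference of 3.11 (2.89 to 3.34). In Ly6c2-Ccr2 cells its levels were 40.1, 5.37 and 2.90 CPM (log2 2.90, 2.57 to 3.24), with differences of 3.48 among Xist-only and 2.47 among Y-only cells. An Ifit3 UMI was present in 19.4% of homozygous and 3.60% of heterozygous Ly6c2-Ccr2 cells. Ifit2 stood at 42.3 and 10.2 CPM in Ly6c2-Ccr2 cells (log2 2.05), at 19.6 and 2.32 CPM in Ltf-gated cells (log2 3.08) and at 7.62 and 1.69 CPM in Cd34-gated cells (log2 2.17). Rsad2 (viperin, an antiviral enzyme) stood at 14.2 and 4.34 CPM in Ly6c2-Ccr2 cells, Oasl1, of the oligoadenylate synthetase family, at 30.4 and 10.2 CPM, and the antiviral GTPase Mx1 at 62.1 and 26.2 CPM. Bst2 (tetherin), which holds virus particles at the cell surface, was higher by 2.11 (2.04 to 2.18) over all kept cells, at 134, 31.0 and 54.3 CPM. Its differences were between 1.52 and 1.83 in the 4 gates, and over all kept cells 1.31 among Xist-only and 2.53 among Y-only cells.

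Sensors and transcription factors of the pathway differed too. Zbp1, a sensor of Z-form nucleic acids, stood at 58.3 and 15.8 CPM over all kept cells (log2 1.88) and at 19.9 and 4.02 CPM in the Elane gate (log2 2.31). Irf7, the factor that amplifies interferon production, stood at 150, 55.6 and 50.4 CPM in homozygous, heterozygous and wild-type Ly6c2-Ccr2 cells, a log2 difference of 1.43 (1.32 to 1.54) that was 1.43 among Xist-only and 1.36 among Y-only cells. Stat2 differed by 0.73 there and Irf9 by 0.52. The receptor chains differed little in that gate: Ifnar1 stood at 78.7 and 78.2 CPM (0.01, -0.10 to 0.12) and Ifnar2 at 399 and 351 CPM (log2 0.18). Jak1, the kinase bound to both the type I and type II receptors, was lower at 256 against 432 CPM (-0.75), and so was Socs3, an inhibitor of cytokine signalling, at 16.8 against 59.6 CPM (-1.82). Over the 18 receptor and signalling genes the median in this gate was 0.17. Ifnb1, which encodes interferon beta, had 0 UMIs in all 4 gates of both knockout libraries, where a count of 0 allows 3 UMIs per library.

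Among related families, 8 of 11 Ifi200 genes, which include cytosolic DNA sensors, were at least 2-fold higher in Ly6c2-Ccr2 cells (median 1.32), against 4.23% of all genes. Ifi211 stood at 94.2, 21.8 and 17.7 CPM there and at 25.2, 4.30 and 3.42 CPM in Cd34-gated cells (log2 2.55, 1.93 to 3.22). Aim2, the inflammasome sensor of DNA, differed by 0.07 in Ly6c2-Ccr2 cells and by -0.53 in Ltf-gated cells. In the Schlafen family, Slfn5 stood at 82.2 and 24.3 CPM over all kept cells (log2 1.76) and Slfn4 at 33.5 and 46.5 CPM (-0.48). These families and the Oas genes hold near-identical copies among which the counting could split reads. MHC class I presentation genes differed less, with a median of 0.42 in Ly6c2-Ccr2 cells and none of 14 past 2-fold there. B2m, the shared light chain, stood at 604 and 580 CPM, and the heavy chain H2-K1 at 325 and 431 CPM (-0.41). Within the interferon list, Samd9l, an inhibitor of protein synthesis, was the 1 gene lower over all kept cells, at 62.3 and 72.5 CPM (-0.22), and in Cd34-gated cells it stood at 11 and 25.3 CPM (-1.20).

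**Figure D2:**
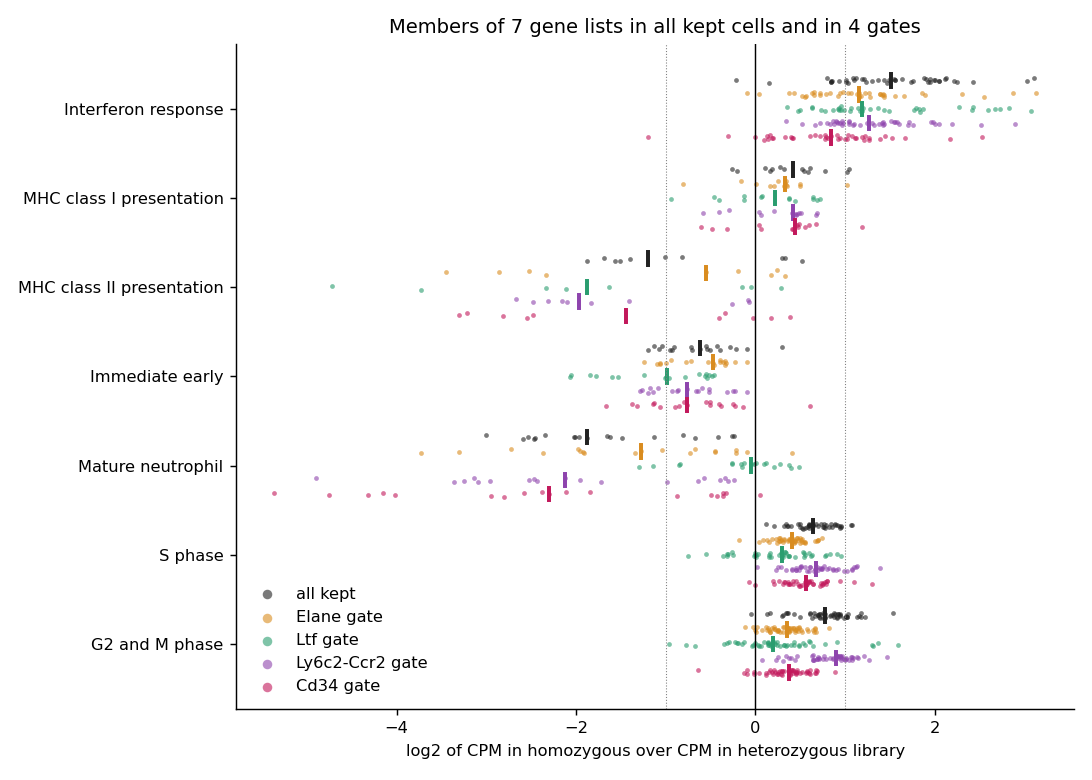
Log2 difference, homozygous over heterozygous (horizontal axis), of each compared member of 7 gene lists in all kept cells and in the 4 gates. Points are genes, thick ticks are list medians and dotted lines mark 2-fold. Interferon response medians lie between 0.85 and 1.52 and immediate early medians between -0.98 and -0.47.

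MHC class II genes, which present peptides to CD4 T cells, were lower in the homozygous library in every gate. In Ly6c2-Ccr2 cells all 10 genes were lower, 7 by at least 2-fold against 5.46% of all genes compared, and the median was -1.97. In Cd34-gated cells 5 of 10 were at least 2-fold lower (background 4.06%, median -1.44), in Ltf-gated cells 5 of 8 (background 6.59%, median -1.87) and in Elane-gated cells 4 of 9 (background 3.09%, median -0.55). Over all kept cells it was 6 of 10 (background 6.48%, median -1.20). H2-Aa, a class II alpha chain, stood at 79.6 CPM in homozygous, 443 in heterozygous and 64.2 in wild-type Ly6c2-Ccr2 cells (-2.48, -2.56 to -2.40) and at 20.2, 142 and 13.4 CPM in Cd34-gated cells (-2.81, -3.16 to -2.47). Its invariant chain partner Cd74 stood at 271, 1158 and 215 CPM in Ly6c2-Ccr2 cells, and Ciita, the master activator of these genes, at 2.31, 10.3 and 1.12 CPM (-2.16, -2.66 to -1.68). The homozygous levels lay near wild type, and the heterozygous levels were the high ones. The homozygous and wild-type libraries were also alike in sex markers. H2-DMa, which loads peptides onto class II, did not share the difference, at 136 and 144 CPM (-0.09).

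A subset of cells carried most class II RNA in the Ly6c2-Ccr2 gate, but not in the Elane and Ltf gates. Cells with at least 10 UMIs per 10000 of the 4 genes H2-Aa, H2-Ab1, H2-Eb1 and Cd74 were 4.25% of homozygous (60 cells), 15.8% of heterozygous (215 cells) and 4.66% of wild-type Ly6c2-Ccr2 cells (72 cells). They held 87.3% of the homozygous and 95.8% of the heterozygous UMIs of these genes in the gate. Such cells held 18.2% and 41.8% in the Elane gate, and 6.90% and 43.6% in the Ltf gate. In the remaining Ly6c2-Ccr2 cells the log2 difference of the 4 genes was -0.83 (-0.94 to -0.71). It was -1.13 in the remaining cells of all kept cells, -2.10 in those of the Elane gate and -1.84 in those of the Ltf gate. Cells with an H2-Aa UMI were 4.98% of homozygous and 18.5% of heterozygous Elane-gated cells, and 4.19% and 12.5% of Ltf-gated cells, in which the gene should be silent. RNA from outside the cell was not separated from the cell's own. The class II difference depended on the sex marker. Among Xist-only cells H2-Aa stood at 44.8 CPM in the homozygous and 366 CPM in the heterozygous library, and the list median was -2.38. Among Y-only cells the levels were 391 and 151 CPM, with a list median of 1.32 in the opposite direction, beside the higher lymphocyte markers of the homozygous Y-only cells given above. In the Ly6c2-Ccr2 gate Y-only cells held 448 and 429 CPM of H2-Aa (0.06, -0.13 to 0.25), from 50 homozygous and 674 heterozygous cells.

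Immediate early genes, which are switched on within minutes of a stimulus, cell handling included, were lower in the homozygous library. All 19 listed genes were lower in Elane-gated and in Ly6c2-Ccr2 cells, 4 and 6 of them by at least 2-fold, with medians of -0.47 and -0.76. Of all genes compared, 3.09% and 5.46% were that much lower in these gates. Over all kept cells the list median was -0.64 among Xist-only and -0.40 among Y-only cells. In the Ltf gate 18 of 18 were lower and 9 of them by at least 2-fold (median -0.98), against 6.59% of all genes. Fos, a subunit of the AP-1 transcription factor, stood at 1021, 1948 and 744 CPM in homozygous, heterozygous and wild-type Ly6c2-Ccr2 cells and at 214, 765 and 177 CPM in Ltf-gated cells. Dusp1, a phosphatase that switches off stress kinases, stood at 144 and 492 CPM in Ltf-gated cells (-1.78). Egr1, a zinc finger factor, stood at 82.0 and 188 CPM over all kept cells (-1.20), with differences of -1.38 among Xist-only and -0.98 among Y-only cells. Atf3, a stress-induced factor, was the 1 listed gene higher over all kept cells, at 331 and 269 CPM.

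Among inflammatory cytokines the neutrophil-attracting chemokine Cxcl2 stood furthest apart. Its level was 107 CPM (4951 UMIs) in homozygous, 1590 CPM (115898 UMIs) in heterozygous and 266 CPM in wild-type kept cells, a log2 difference of -3.89 (-3.93 to -3.85). By gate it was -2.97 in Elane, -1.85 in Ltf, -3.45 in Ly6c2-Ccr2 and -3.06 in Cd34 cells, and over all kept cells -3.07 among Xist-only and -2.98 among Y-only cells. A Cxcl2 UMI was found in 15.2% of homozygous and 79.3% of heterozygous Elane-gated cells, in 46.7% and 87.3% of Ltf-gated cells, in 23.9% and 79.6% of Ly6c2-Ccr2 cells and in 17.9% and 76.2% of Cd34-gated cells. The share was therefore high in every heterozygous gate, beside the neutrophil genes described next, and how much of it is RNA from outside the cell was not tested. Il1b, the interleukin-1 beta cytokine, stood at 18.9 and 73.0 CPM in Ly6c2-Ccr2 cells (-1.95), and Nfkbiz, a co-regulator of NF-kB, at 94.4 and 284 CPM (-1.59). The other cytokine and NF-kB genes differed less. Over 24 compared genes the median in that gate was -0.45, Ccl2, a monocyte-attracting chemokine, was higher over all kept cells at 42.8 against 23.6 CPM, and the cytokine Il18 stood at 3.51 and 1.17 CPM.

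Mature neutrophil and granule genes were lower over all kept cells, in step with the smaller Ltf-gated share, and about level within the Ltf gate. Of 19 compared mature neutrophil genes, 14 were at least 2-fold lower over all kept cells (median -1.88), against 6.48% of all genes. Their summed level was 23143 CPM in homozygous, 68012.5 in heterozygous and 20622 in wild-type kept cells. The homozygous level thus lay near wild type, which that library also resembled in sex markers. Within the Ltf gate the median was -0.05 and 2 of 19 were at least 2-fold lower, against 6.59%. S100a8, a calcium-binding protein that fills neutrophil cytoplasm, stood at 10686 and 29837 CPM over all kept cells and at 71721 and 62005 CPM in the Ltf gate (log2 0.21). Retnlg, a resistin-like secreted protein of maturing neutrophils, stood at 308 and 557 CPM in the Ltf gate (-0.85). In the other gates the median of this list was -1.27 (Elane), -2.12 (Ly6c2-Ccr2) and -2.30 (Cd34). The heterozygous Ly6c2-Ccr2 cells held 11753 CPM of S100a8 against 2043 CPM, a difference of -1.36 among Xist-only and -3.09 among Y-only cells. The median of the secondary and tertiary granule list was 0.02 in the Ltf gate and -1.76 in Ly6c2-Ccr2 cells. Whether neutrophil RNA in other cells, or cells that carry both programmes, moved other results in those gates was not tested.

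Primary granule and monocyte genes were higher over all kept cells and closer within their gates. The primary granule median was 0.60 over all kept cells and 0.40 in the Elane gate. Ctsg, a granule protease, stood at 389 and 194 CPM over all kept cells and at 882 and 574 CPM in the Elane gate (log2 0.62). Of 20 monocyte genes, 18 were higher over all kept cells (median 0.93, 9 of them by at least 2-fold) and 16 in the Ly6c2-Ccr2 gate (median 0.30, 2 of them by at least 2-fold). Of all genes compared, 66.0% were higher and 7.31% at least 2-fold higher over all kept cells, and 59.2% and 4.23% in the gate. Fcgr1, the high-affinity IgG receptor, stood at 17.8, 6.02 and 4.91 CPM in homozygous, heterozygous and wild-type Ly6c2-Ccr2 cells (log2 1.56). Ly6c2 itself, which is part of the gate, stood at 2390 and 1316 CPM there. Fn1, which encodes fibronectin, was lower at 131 against 244 CPM (-0.89). Among Xist-only cells of the Ly6c2-Ccr2 gate the monocyte median was -0.035.

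**Figure D3:**
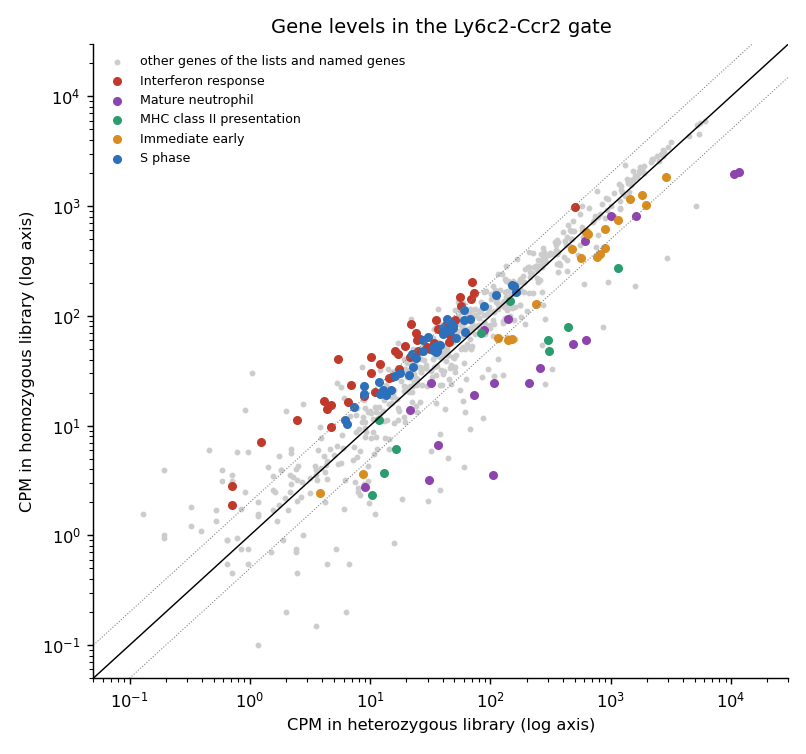
Levels in Ly6c2-Ccr2 cells of the heterozygous (horizontal axis) and homozygous library (vertical axis), both in CPM on log axes. Points are genes, coloured by list, the solid line marks equal levels and dotted lines mark 2-fold. All 44 interferon response genes lie above the line of equality, and all 10 MHC class II and all 19 immediate early genes below it.

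Cell cycle genes were higher in homozygous cells, mostly by less than 2-fold. All 42 S phase genes were higher over all kept cells (median 0.64) and in the Ly6c2-Ccr2 gate (median 0.68), where 7 were at least 2-fold higher. All 52 G2 and M phase genes were higher in that gate (median 0.90, 12 of them by at least 2-fold). The shares of all genes were 66.0% higher over all kept cells, and 59.2% higher and 4.23% at least 2-fold higher in the gate. Mcm5, a subunit of the replicative helicase, stood at 63.7, 30.2 and 44.2 CPM there, and Mki67, the proliferation marker Ki-67, at 240, 124 and 123 CPM. The gates differed in size, with a G2 and M median of 0.36 in the Elane gate, 0.19 in the Ltf gate and 0.38 in the Cd34 gate. This difference also depended on the sex marker. Over all kept cells the G2 and M median was 1.08 among Xist-only and -0.26 among Y-only cells, and the S phase median 0.77 and -0.18. In the Ly6c2-Ccr2 gate the Y-only medians were 0.05 and 0.18.

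Genes of ribosome assembly and MYC targets were higher as well, 26 of 27 over all kept cells with a median of 0.65, where 66.0% of all genes were higher. The median was 0.50 among Xist-only and 0.75 among Y-only cells. The summed level of the list was 3678 CPM in homozygous, 2392 in heterozygous and 3746 in wild-type kept cells. The homozygous level thus lay near wild type, which that library also resembled in sex markers. Srm, which makes spermidine, stood at 29.1 and 13.2 CPM, and the mitochondrial chaperone Hspd1 at 115 and 56.6 CPM. Rrp12, an RNA-export factor of ribosome assembly, was the 1 listed gene lower, at 17.7 and 25.8 CPM. All 33 nuclear genes of oxidative phosphorylation were higher, with a median of 0.29 and none past 2-fold, near the 0.22 of all genes. This median was 0.26 among Xist-only and 0.10 among Y-only cells. Their summed level was 7761.5 CPM in homozygous, 6419 in heterozygous and 7664 in wild-type kept cells.

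Hoxa9, Hoxa10 and Hoxa11 were higher and Pbx3 was lower, homeobox factors of families that act together in myeloid leukaemia and blood progenitors. Of the HoxA, Meis and Pbx list, 12 of 14 compared genes were higher in the Elane gate, 3 of them by at least 2-fold, and the other 2 were at least 2-fold lower. Of all genes compared there, 61.7% were higher, 4.1% at least 2-fold higher and 3.09% at least 2-fold lower. In the Cd34 gate 8 of 13 were higher, near the 57.4% of all genes, and none by 2-fold. Among Y-only Ly6c2-Ccr2 cells 3 of 12 were higher, where the median of all genes was 0.08. Hoxa9 stood at 371 CPM in homozygous, 159 in heterozygous and 223 in wild-type Elane-gated cells (log2 1.22, 1.16 to 1.28), Hoxa10 at 82.8, 35.4 and 41.0 CPM, and Hoxa11 at 9.25, 0.629 and 1.80 CPM (log2 3.88, 3.07 to 4.82). Their neighbour Hoxa11os runs antisense, and reads of the pair can be told apart only if counting used strand. Hoxa9 differed by 1.11 over all kept cells, but by 0.97 among Xist-only and 0.34 among Y-only cells. Pbx3 was lower, at 207 CPM in homozygous, 1028 in heterozygous and 1243 in wild-type kept cells (-2.31, -2.34 to -2.28). A Pbx3 UMI was found in 39.6% and 90.0% of homozygous and heterozygous cells. Its difference was -2.55 in Elane, -2.0 in Ltf, -2.24 in Ly6c2-Ccr2 and -0.76 in Cd34 cells. Xist-only cells held 130 and 1135 CPM of Pbx3. Among Y-only cells, whose stem cell and lymphocyte markers also differed, it turned direction, at 1611 and 992 CPM (log2 0.70). Meis1, another partner, was nearly level at 679 and 720 CPM (-0.08), and in Cd34-gated cells it stood at 506, 685 and 1077 CPM (-0.44). Mecom (Evi1), a stem cell factor, stood at 381, 642 and 893 CPM in Cd34-gated cells (-0.75).

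Genes of fatty acid handling, the known field of Fabp4, had medians between -0.24 and 0.35 over all kept cells, where that of all genes was 0.22. In the list of fatty acid binding and uptake, 9 of 17 compared genes were higher and 8 lower over all kept cells (median 0.07). The median of fatty acid oxidation was 0.26 with none of 23 past 2-fold, that of fatty acid and triglyceride synthesis 0.19, that of cholesterol synthesis 0.35 and that of PPARg targets -0.24, with 12 of 16 genes lower. Of all genes compared over all kept cells, 66.0% were higher. With TMM scaling the medians of binding and uptake and of fatty acid and triglyceride synthesis turned to -0.13 and -0.011. Fabp5, a related binding protein of myeloid cells, stood at 40.6, 15.5 and 24.6 CPM over all kept cells (log2 1.39), at 46.0 and 21.6 CPM in Elane-gated cells and at 47.5 and 26.6 CPM in Ly6c2-Ccr2 cells, with differences over all kept cells of 0.62 among Xist-only and 1.53 among Y-only cells. Slc27a4, a fatty acid transport protein, stood at 7.66 and 22.2 CPM (-1.54), and the fatty acid receptor Cd36 at 0.0217 and 1.0 CPM, the first from 1 UMI (-5.53, -10.85 to -3.01). Dgat2, which completes triglyceride synthesis, stood at 16 and 34.1 CPM (-1.09). Pparg, the nuclear receptor behind adipocyte genes, stood at 3.30 and 4.58 CPM (-0.47).

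Some genes stood far apart between the libraries, among them Slc15a2, which was near absent from the homozygous library in every gate. Slc15a2, a peptide transporter, had 4 UMIs in 3 of 4318 homozygous cells and 3496 UMIs in 2094 of 7957 heterozygous cells (26.3%), levels of 0.0868 and 48.0 CPM (-9.11, -10.99 to -7.75), and wild type stood at 0.581 CPM. It had 0 UMIs in all 4 homozygous gates, against levels of up to 46.0 CPM in the heterozygous ones. Against a floor of 3 counts per library the heterozygous level was at least 286-fold higher in Ly6c2-Ccr2 cells, 185-fold in Elane, 44.2-fold in Cd34 and 18.8-fold in Ltf cells. Xist-only cells held 0 and 259 Slc15a2 UMIs and Y-only cells 1 and 2286. In the other direction Xlr3a, an X-linked lymphocyte-regulated gene, had 124 homozygous and 0 heterozygous UMIs over all kept cells, at least 65.4-fold higher. Xlr3b stood at 6.77 and 0.0274 CPM, the latter from 2 UMIs, and Xlr4a at 14.1, 0.823 and 0.491 CPM (log2 4.10), with an Xlr4a UMI in 12.7% and 0.654% of cells. The Xlr genes are near-identical copies, and their split of reads is uncertain. Across the settings tried, sex marker sets included, the Xlr4a difference over all kept cells ran from 0.79 to 4.25. Alox5, which starts leukotriene synthesis, stood at 0.201 and 6.35 CPM in Ly6c2-Ccr2 cells (-4.98). Its difference there ran from -5.07 to -0.68 across the same settings. G0s2, an inhibitor of triglyceride lipolysis abundant in neutrophils, stood at 4.16 and 59.9 CPM in Ly6c2-Ccr2 cells (-3.85) and at 56.3 and 262 CPM in the Ltf gate (-2.22). Col19a1, a collagen gene, stood at 42.1, 359 and 169 CPM over all kept cells (-3.09).

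**Figure D4:**
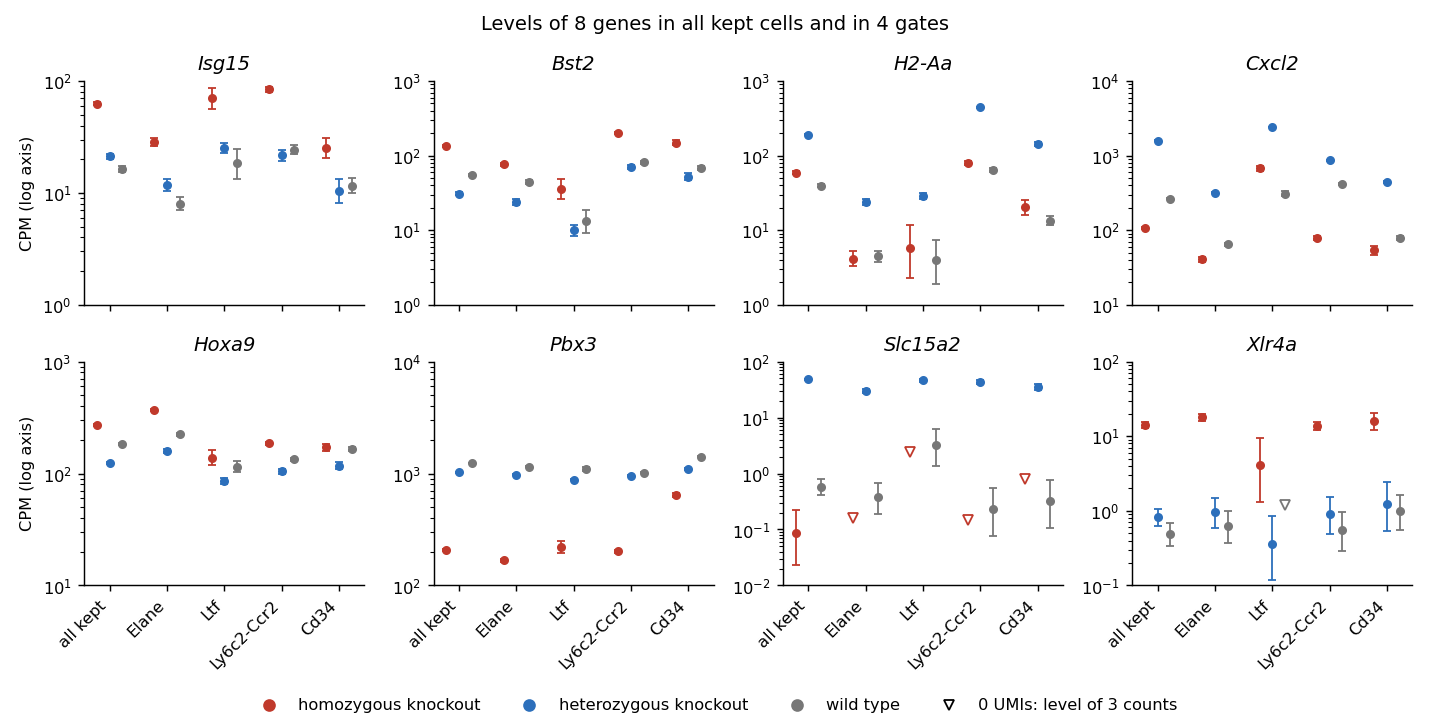
Levels of 8 genes (vertical axes, CPM, log axes) in all kept cells and in the 4 gates, with 95% counting intervals where there were UMIs. Each point is 1 library, and open triangles stand at the level of 3 counts where a library had 0 UMIs. Isg15 and Bst2 lie higher in the homozygous library in each group of cells, and H2-Aa, Cxcl2 and Pbx3 lower.

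Of 10772 genes compared in all 4 gates, 26 were at least 2-fold higher and 31 at least 2-fold lower in each, with every interval excluding 0. Gates overlap, with 278 homozygous and 465 heterozygous cells in exactly 2 of them, so the 4 gates are not separate observations. At most 37 interferon response genes, the number compared in the Ltf gate, are among the 10772. The interferon list held 9 of the 26: Zbp1, Isg15, Oasl1, Irf7, Bst2, Irgm1, Xaf1, Phf11b and Ifit2. Cdk5rap1, which modifies mitochondrial transfer RNA, was another, with log2 differences of 1.80 to 2.14 in the gates and levels of 47.3, 10.8 and 6.65 CPM in Cd34-gated cells. The 26 also held Satb1, a chromatin organiser of lymphoid and progenitor cells, at 177, 45.7 and 245 CPM in Ltf-gated cells. Xist was also among the 26 and 4 Y-linked genes among the 31, in step with the sex markers of the cells. The 31 also held Cxcl2, G0s2, Slc15a2, Fosb, Egr1, H2-Aa, H2-Ab1, H2-Eb1, Cd74, Zfp36l1, which promotes decay of messenger RNA, and Acod1, which makes itaconate in activated myeloid cells.

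**Figure D5:**
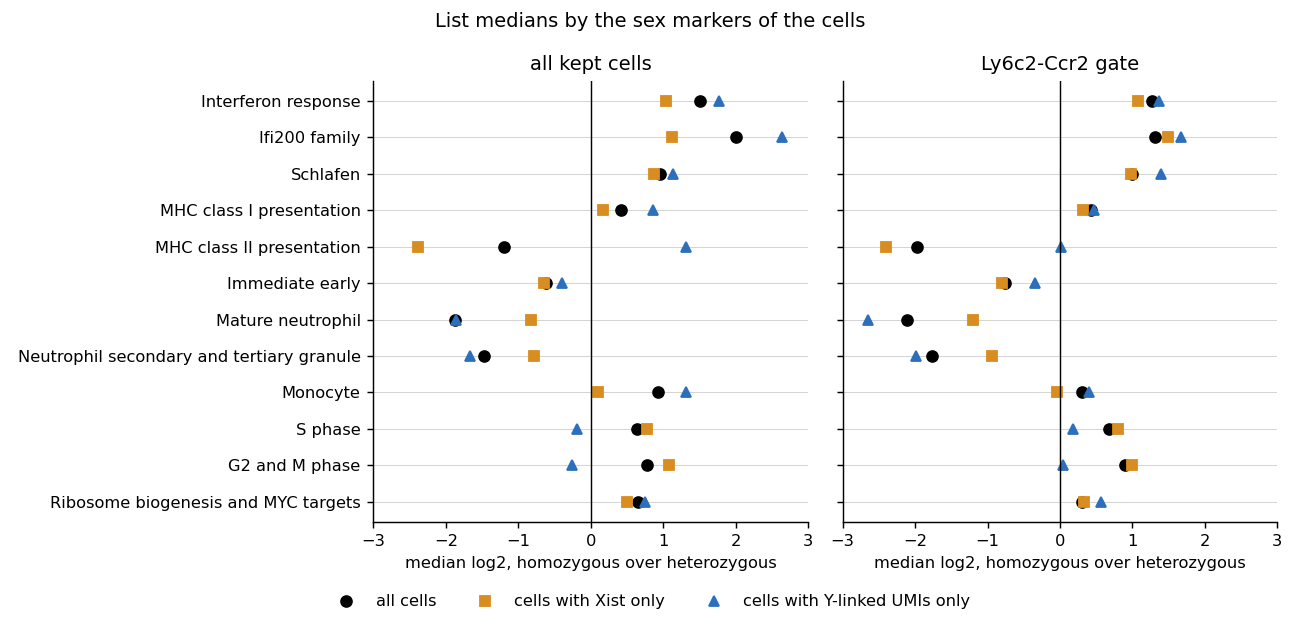
Median log2 difference, homozygous over heterozygous (horizontal axis), of 12 gene lists in all kept cells and in the Ly6c2-Ccr2 gate, for all cells, cells with Xist only and cells with Y-linked UMIs only. The interferon response medians lie between 1.04 and 1.77 in the 6 sets, whereas the MHC class II medians run from -2.40 to 1.32.

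In Cd34-gated cells, 6 of 15 compared stem cell genes were higher and 9 lower, 1 of them by at least 2-fold, and the median was -0.17. Of all genes compared there, 57.4% were higher, 4.06% were at least 2-fold lower and the median was 0.07. Among Xist-only cells of the gate the stem cell median was -0.20. Angpt1, a ligand of the Tie2 receptor, stood at 135 and 152 CPM and the growth factor receptor Flt3 at 36.8 and 44.7 CPM (-0.28, -0.58 to 0.02), while Ly6a (Sca-1) stood at 4.99 and 15.5 CPM (-1.64, -2.43 to -0.92). Among the genes furthest apart, Cpa3, a mast cell protease also made by early progenitors, stood at 39.2, 7.37 and 0.0658 CPM (log2 2.41, 1.93 to 2.91). Its UMIs came from 14 of 212 homozygous and 7 of 454 heterozygous cells, and the interval does not cover the spread between cells. Ly6k stood at 134, 36.6 and 111 CPM and Kcnn4, a calcium-activated potassium channel, at 49.9 and 14.1 CPM. On the lower side Acod1 stood at 1.05 and 23.7 CPM (-4.49) and Zfp36l1 at 18.1 and 77.4 CPM (-2.09). The summed mature neutrophil level of this gate was 4052 CPM in homozygous and 16740 CPM in heterozygous cells.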

How the data were processed

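Marrow of 2 mice per Fabp4 genotype was pooled into 1 library each and prepared with the 10x Chromium 3' v3 kit, per the labels' protocols. The deposited values are raw UMI counts, written by Cell Ranger 8.0.1 per the file headers. The submitters' processing notes name Cell Ranger, STAR and mm10, and the annotation release is not given in the sources used here. Groups follow the genotype stated for each sample, since the title letters do not spell it.

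UMIs were summed per library over kept cells and per gate with Python 3.11.15, numpy 2.4.6, scipy 1.17.1 and pandas 2.3.3, and expressed as CPM. Intervals are exact Poisson (Garwood) for levels, exact conditional for ratios, Clopper-Pearson for shares and Newcombe for their differences. They cover counting error only. Genes were compared with at least 20 UMIs in both libraries together, and a level of 0 was set against 3 counts per library. Doublets were kept. As an alternative, the cells with the highest Scrublet scores (scanpy 1.11.5) were removed, 280 homozygous and 682 heterozygous. That number was set by a rate of 0.8% per 1000 barcodes. Scrublet's own calls were 0 and 184 cells. Promoters are RefSeq entries on GRCm38.p6. The code was tested on simulated counts.

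The comparison, gates and gene lists were chosen with earlier results of these data known. Genes were named by the bound of the interval nearest to 0, the 10 furthest in each direction and group of cells among genes with at least 50 UMIs in 1 library and a level at least 0.2 of the gene's highest gate level there, without sex-linked, ribosomal, haemoglobin, mitochondrial, unnamed and antigen receptor genes. Of these the text gives examples, and some genes are not reported here. Up to 4 list members per group of cells were also named, by level or difference. Members set beside them as contrasts (Aim2, Slfn4, Ifnar1, H2-DMa, Meis1 and the like), the 4 genes summed for class II cells and the minimum of 50 cells for a sex marker were chosen after the values were seen.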

Additional observations from a re-analysis of the deposited data

How the results depend on the processing

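No paired analysis was possible because the groups share only replicate number 1, with 1 library each. List medians of at least 0.25 in size kept their direction under TMM scaling (edgeR 4.0.16), removal of doublets and a mitochondrial limit of 25%. They also kept it with equal weight for every cell and with other UMI minimums. Named genes whose interval excluded 0 kept theirs too, but were not recomputed at other UMI minimums. Named for intervals far from 0, they could hardly be turned by the small TMM shifts given below. Share differences whose interval excluded 0 kept their direction without doublets and at the 25% limit. TMM scaling, cell weights and UMI minimums do not enter the shares. Values nearer to 0 did cross it: 5 list medians with TMM, 6 without doublets, 7 with equal weights, 4 at a minimum of 100 UMIs, 5 at 1 UMI and 1 at 10 expected UMIs. TMM moved the log2 values of all kept cells by -0.20 and those of the gates by less than 0.1. Of the genes at least 2-fold apart over all kept cells, 1245 were higher and 1103 lower, against 799 and 1439 with TMM and 2580 and 1063 with equal weights. In the Ltf gate the split of 471 and 758 became 1143 and 1014 with equal weights. Why the values below moved was not tested.

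With cells in exactly 1 gate, the medians of Schlafen genes (-0.037) and monocyte genes (-0.092) in the Cd34 gate and of primary granule genes in the Ly6c2-Ccr2 gate (-0.17) reversed. Among Xist-only cells, so did monocyte genes in the Ly6c2-Ccr2 (-0.035) and Elane gates (-0.16), MHC class I in the Elane gate (-0.073) and the HoxA, Meis and Pbx list in the Ltf gate (-0.12). Among Y-only cells, S phase (-0.18), primary granule (-0.20), cholesterol (-0.25), G2 and M phase (-0.26) and MHC class II medians (1.32) and Vill (0.040) reversed over all kept cells. In the Ly6c2-Ccr2 gate the HoxA, Meis and Pbx list (-0.34), primary granule (-0.44) and MHC class II (0.011) medians reversed, as did the Elane gate share difference (-3.64 points). With stricter gates the S phase median of the Ltf gate was -0.22.

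The share differences in points moved to 9.97 (Elane), -15.2 (Ltf), 6.80 (Ly6c2-Ccr2) and -1.69 (Cd34) with a mitochondrial limit of 25%. With at least 1000 UMIs and a limit of 5% they were -18.0 (Ltf), 23.7 (Ly6c2-Ccr2) and 0.472 (Cd34). Lenient gates gave 6.76 (Elane) and -47.7 (Ltf), and strict gates 7.33, -7.54, 13.8 (Ly6c2-Ccr2) and 0.371 (Cd34). Y-only cells gave -15.0 (Ltf), 20.3 (Ly6c2-Ccr2) and 14.2 (Cd34), and Xist-only cells -8.22, 2.85 and -5.63 in that order. Thinning gave -18.7 (Ltf) and 9.06 (Ly6c2-Ccr2).

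The numbers of genes at least 2-fold apart were 2348 over all kept cells, 1021 in Elane, 1229 in Ltf, 1358 in Ly6c2-Ccr2 and 748 in Cd34 cells. At a minimum of 100 UMIs they were 1291, 372, 343, 638 and 241, and at 1 UMI 4384, 2884, 2829, 3202 and 2174. Equal weights gave 3643, 1746 (Elane) and 2157 (Ltf), a lenient Elane gate 2075, Xist-only Ltf cells 524, and a minimum of 10 expected UMIs per library, chosen after seeing the data, 281 in the Ltf gate. Interferon genes at least 2-fold higher numbered 15 (Elane) and 10 (Cd34) with strict gates, 13 in Xist-only Ltf cells, 13 (Ltf) and 11 (Cd34) at 100 UMIs, and 11 in the Ltf gate at 10 expected UMIs. Few cells limit the Ltf and Cd34 gates of the homozygous library, and its 142 Y-only cells limit the comparison within that marker.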

Other observations

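Markers of lymphocytes differed at low levels. Of 11 T and natural killer cell genes, 10 were higher in the homozygous library over all kept cells, 7 of them by at least 2-fold (median 1.17), where 66.0% of all genes were higher and 7.31% at least 2-fold higher. The cytotoxic protease Gzma had 267 homozygous and 0 heterozygous UMIs (5.79 and 0 CPM, at least 141-fold higher) and stood at 5.61 CPM in wild type. Of its homozygous UMIs, 146 lay in Ly6c2-Ccr2 cells. Cd3g, a chain of the T cell receptor complex, stood at 5.25, 1.33 and 1.31 CPM. Nkg7, a granule protein of cytotoxic cells, was the 1 listed gene lower, at 78.8 and 90.1 CPM. Only 29 homozygous and 14 heterozygous cells held at least 3 UMIs of Cd3d, Cd3e, Cd3g, Ncr1 and Gzma together. With Nkg7 added to that sum they were 336 and 722, of which 87.5% and 78.1% passed the Elane gate. Nkg7 was therefore no marker of lymphocytes alone here. The chemokine Xcl1 stood at 21.7, 1.73 and 1.24 CPM over all kept cells and at 29.8, 1.04 and 2.06 CPM in Ly6c2-Ccr2 cells (log2 4.85). Jchain, which joins secreted antibodies and is also made by dendritic cell precursors, stood at 71.3, 19.4 and 69.1 CPM.

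Of 7 megakaryocyte and platelet genes, 6 were lower in the homozygous library over all kept cells, 3 of them by at least 2-fold against 6.48% of all genes. In the Elane gate 3 of 5 were higher, near the 61.7% of all genes. Pf4 and Ppbp, chemokines stored in platelets, stood at 1.28 and 12.2 CPM and at 0.347 and 4.94 CPM over all kept cells, and at 1.47 and 0.730 CPM in wild type. Hdc, which makes histamine in basophils and immature neutrophils, stood at 14.5, 89.3 and 15.4 CPM (-2.62). Mcpt8, a basophil protease, stood at 3.36 and 1.45 CPM (log2 1.21). The complement genes C1qa, C1qb and C1qc of macrophages were at or below 0.174 CPM in the homozygous and between 0.535 and 0.974 CPM in the heterozygous library.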
